A study of Mus musculus with 6 samples.

Results

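A set of 10 imprinted genes with known roles in growth was followed through 6 libraries of single mouse cardiomyocytes (CMs): H19, Igf2, Igf2r, Dlk1, Meg3, Peg3, Mest, Grb10, Plagl1 and Cdkn1c. The 10 genes were taken by symbol from the gene lists of the count matrices, and all 10 were found among the 18117 genes with at least 1 UMI in CMs. No level was asked for, but the genes were chosen with earlier results of these data known. Counts of members set beside the share of all genes are therefore descriptive. A UMI (unique molecular identifier) stands for 1 captured RNA molecule. All 10 also passed the minimum of 100 UMIs over the libraries that 11412 genes met.

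At an imprinted gene the copies inherited from the mother and from the father are marked differently by DNA methylation, and in many tissues a single parental copy is transcribed. Many imprinted genes act on fetal growth, with paternally expressed genes such as Igf2 and Dlk1 promoting it and maternally expressed genes such as Igf2r, Grb10, Cdkn1c and H19 restraining it. Several of them are high in fetal organs and are turned down after birth, when growth slows. The assay reads the sum over both parental copies, so that the parental origin of a transcript was not measured.

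The CMs came from left ventricles of C57BL/6J mice at embryonic day 16.5 (E16.5) and at postnatal days 1 (P1) and 5 (P5). They were fixed in methanol and sorted by staining for sarcomeric myosin (MYH1) and by DNA content into 2n and 4n cells, where 4n takes in binucleate CMs, tetraploid CMs and CMs that have copied their DNA before division. Each combination of age and DNA content gave 1 library, into which cells of many pups from 3 sorts went together. By the study's methods the sorts of an age were of separate litters, and both DNA content classes were gated within the sort. A library is named by its age and DNA content (E16.5-2n, for example). Where 6 values are given in a row, they run from E16.5 over P1 to P5 with 2n before 4n at each age. With 1 library per group there is no estimate of the spread between animals and no test between conditions, and the 95% intervals given cover counting error only.

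A CM was a cell with at least 1 UMI of each of Tnni3, Tnnt2, Tnnc1 and Actc1, which 30733 of 31156 deposited cells met. Each library held 3654 to 7340 CMs with a median of 1831 to 4658 UMIs per CM, and 3 UMIs corresponded to 0.153 to 0.230 counts per 1000000 UMIs (CPM). Any pair of libraries shared 17 to 62 cell barcodes, 0.462 to 1.22% of the smaller library. Markers of other cells were also present in the CMs and were not even across libraries. The 8 fibroblast markers (Col1a1, Col3a1, Col1a2, Dcn, Lum, Pdgfra, Tcf21, Postn) summed to 133, 142 and 263 CPM in 2n CMs at the 3 ages, but to 796, 947 and 360 CPM in 4n CMs. The summed endothelial markers ran from 26.0 to 115 CPM, the mural markers from 42.9 to 176, the macrophage markers from 2.74 to 16.1, the epicardial markers from 2.43 to 14.1 and the erythroid markers from 1648 to 10327. Of all these genes, the macrophage marker Fcgr1 and the epicardial marker Upk1b, both in E16.5-2n, had 0 UMIs. Abcc9 made up much of the mural sum, at 1469 of its 1700 UMIs in P1-2n and 1825 of 3458 in P1-4n. It was found in 8.11% (E16.5-2n) to 28.8% (P1-4n) of CMs, and which cells it came from was not tested.

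H19, Igf2 and Mest are host genes of microRNAs, whose mature sequences are shown because they are encoded within the bounds of these members. By the GENCODE vM21 exons, both miR-675 sequences lay in an exon of 3 of the 7 annotated H19 transcripts, while those of miR-483 and miR-335 lay in no exon of Igf2 or Mest and so in introns. The mature microRNAs themselves lack a poly(A) tail and were not measured. The sequences are from RefSeq (GRCm38.p6), with the seed, bases 2 to 8, in capitals.
mmu-miR-675-5p (H19): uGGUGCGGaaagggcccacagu
mmu-miR-675-3p (H19): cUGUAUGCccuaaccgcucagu
mmu-miR-483-5p (Igf2): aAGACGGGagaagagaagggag
mmu-miR-483-3p (Igf2): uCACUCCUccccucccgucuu
mmu-miR-335-5p (Mest): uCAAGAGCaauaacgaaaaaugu
mmu-miR-335-3p (Mest): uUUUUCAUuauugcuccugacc
With the 3 microRNAs inside Meg3 (miR-1906, miR-770-5p and miR-770-3p), the members held 9 mature microRNAs in 4 host genes, and all 9 seeds differed.

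The start sites of imprinted genes often carry the motif of ZFP57, a zinc-finger protein that binds methylated imprinting control regions, whose core is TGCCGC. Of the 10 members, 8 had an entry in the RefSeq promoter table, with 15 promoters of 300 bases (250 before and 50 after the start). The core was found on either strand in 6 of these 15 promoters, in 5 members (Mest, Igf2, Plagl1, Grb10 and Meg3). Of all 32851 promoters in the table, 11.6% held it. The core itself holds a CG, and the promoters of the members had a median of 13 CGs, against 7 over all promoters. The GC box GGGCGG was in 8 of the 15 against 35.7% of all promoters, and TATAAA was in 1 of the 15, that of Meg3, against 13.6%. Alternative promoters of a gene can overlap, so that the 15 are not separate counts, and a match is a string of letters and not a bound site. The promoters of Mest, Plagl1 and Meg3, whose transcripts all fell with age, are shown over the 250 bases before the start, on the plus strand, with the core in capitals (it reads GCGGCA on this strand).
Mest chr6:30737800-30738049 (GRCm38.p6): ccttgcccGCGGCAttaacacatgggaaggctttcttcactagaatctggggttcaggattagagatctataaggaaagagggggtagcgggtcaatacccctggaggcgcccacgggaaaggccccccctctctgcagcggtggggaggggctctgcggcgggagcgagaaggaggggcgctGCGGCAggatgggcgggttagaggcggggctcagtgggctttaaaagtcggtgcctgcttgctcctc
Plagl1 chr10:13090582-13090831 (GRCm38.p6): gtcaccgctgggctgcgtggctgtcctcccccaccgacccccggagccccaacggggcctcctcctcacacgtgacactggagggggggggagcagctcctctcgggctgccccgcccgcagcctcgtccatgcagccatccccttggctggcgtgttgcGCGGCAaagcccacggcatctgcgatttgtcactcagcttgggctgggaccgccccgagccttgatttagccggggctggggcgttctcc
Meg3 chr12:109540746-109540995 (GRCm38.p6): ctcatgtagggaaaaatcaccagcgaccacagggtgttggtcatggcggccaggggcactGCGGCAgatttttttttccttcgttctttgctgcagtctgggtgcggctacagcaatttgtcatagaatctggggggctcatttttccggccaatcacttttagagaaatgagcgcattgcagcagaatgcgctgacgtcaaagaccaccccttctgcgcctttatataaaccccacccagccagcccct
The Mest stretch held 2 matches, the others 1 each.

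All 10 genes were higher at E16.5 than at P5 in both 2n and 4n CMs, and their summed level fell at each step. Summed over the 10 genes, the level was 2515 CPM at E16.5, 911 at P1 and 462 at P5 in 2n CMs, and 3370, 1528 and 494 CPM in 4n CMs. When each CM was thinned to 1000 UMIs, so that depth was the same in every library, 12.6% of E16.5-2n CMs and 7.97% of E16.5-4n CMs held no UMI of any of the 10 genes. The same share was 43.6% (2n) and 33.0% (4n) at P1 and 66.8% (2n) and 65.5% (4n) at P5. At full depth it was 2.61, 1.43, 22.3, 6.64, 26.1 and 19.3% over the 6 libraries. Thinning left out 163, 23, 700, 0, 20 and 0 CMs with fewer UMIs, in the same order.

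**Figure D1:**
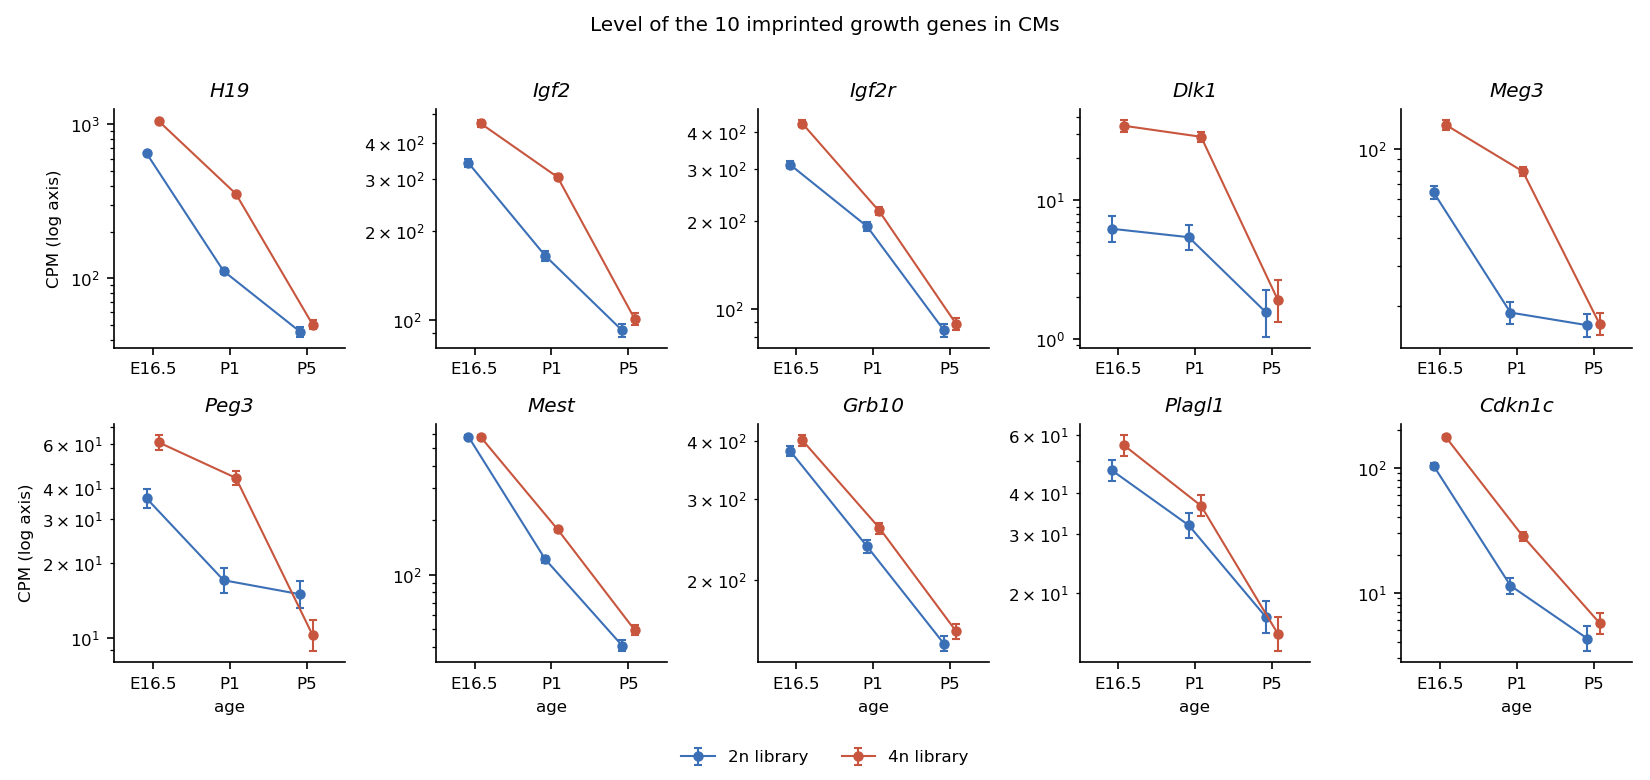
Level of each of the 10 genes (CPM over all CMs, log axis) in the 6 libraries, with age on the horizontal axis and separate marks for 2n and 4n; vertical bars are exact 95% Poisson intervals. All 10 genes were lower at P5 than at E16.5, from 1046 to 49.8 CPM for H19 in 4n and from 402 to 155 CPM for Grb10 in 4n.

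The 3 members that act in insulin-like growth factor signalling stood 2.59-fold to 4.82-fold higher at E16.5 than at P5. Igf2 (chr7:142650766-142666816, minus strand, GRCm38), which encodes the fetal growth factor IGF2, was counted at 341 CPM at E16.5, 164.8 at P1 and 91.9 at P5 in 2n CMs, and at 464, 305 and 101 CPM in 4n CMs. Its level at E16.5 was 3.71-fold that at P5 in 2n and 4.61-fold in 4n. Igf2 was still counted at P5, where 7.60% of thinned P5-2n CMs and 9.41% of thinned P5-4n CMs still held an Igf2 UMI (24.2% and 31.9% at full depth).

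Igf2r (chr17:12682406-12769664, minus strand) encodes the mannose 6-phosphate receptor that takes up IGF2 and delivers it to lysosomes. It stood at 310, 191 and 84.6 CPM in 2n CMs at E16.5, P1 and P5, and at 428, 215 and 88.8 CPM in 4n CMs. Ligand and clearing receptor thus fell by similar factors, with Igf2r 3.67-fold lower at P5 than at E16.5 in 2n and 4.82-fold in 4n. Grb10 (chr11:11930508-12038683, minus strand), an adaptor protein that binds the activated insulin and IGF1 receptors and restrains their signal, had the smallest ratio between its highest and its lowest library among the 10 genes, 2.76-fold. Its level was 381, 237 and 146 CPM in 2n CMs at the 3 ages and 402, 260 and 155 CPM in 4n CMs, a 2.62-fold and a 2.59-fold difference from E16.5 to P5.

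H19 dropped at each step in 2n and in 4n CMs. H19 (chr7:142575529-142578143, minus strand), a long non-coding RNA from the locus it shares with Igf2, was at 647 CPM (634 to 660) in 2n CMs at E16.5, at 111 (106 to 117) at P1 and at 44.7 at P5. In 4n CMs it was at 1046 CPM at E16.5 (1029 to 1064), 354 at P1 (345 to 362) and 49.8 at P5 (46.7 to 53.2). The difference between E16.5 and P5 was 14.5-fold in 2n and 21.0-fold in 4n. The thinned share of CMs with an H19 UMI went from 40.7 to 7.91 to 2.39% in 2n and from 51.2 to 19.5 to 3.17% in 4n (at full depth 62.7, 14.7 and 5.91%, and 71.7, 39.6 and 10.0%). The UMIs were not spread evenly at P5: a single CM of P5-2n held 118 of the 802 H19 UMIs in that library, while the highest count in a CM of P5-4n was 27 of 917.

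Meg3 (chr12:109541001-109571726, plus strand) is the maternally expressed long non-coding RNA of the Dlk1-Dio3 domain. It was at 64.0, 18.7 and 16.5 CPM in 2n CMs and at 127, 79.3 and 16.6 CPM in 4n CMs. In 2n the fall lay between E16.5 and P1, and the interval of the log2 ratio from P1 to P5 held 0 (-0.19, -0.42 to 0.05). Over all 4n CMs the larger step came later, with a log2 ratio of -0.69 (-0.79 to -0.58) from E16.5 to P1 and of -2.25 (-2.43 to -2.08) from P1 to P5. In 4n CMs with at least 3 fibroblast markers Meg3 was at 419, 208 and 127 CPM at the 3 ages. In 4n CMs with none of those markers of other cells it was at 43.1, 18.6 and 3.16 CPM. Dlk1 (chr12:109452823-109463336, plus strand), the paternally expressed gene of the same domain, encodes a transmembrane protein of the Notch ligand family that restrains differentiation. It was scarce, with 28 to 563 UMIs per library, at 6.22, 5.41 and 1.56 CPM in 2n CMs and 34.4, 28.6 and 1.90 CPM in 4n CMs. Over all CMs, Dlk1 kept close to its E16.5 level at P1 (2n log2 ratio -0.20, -0.64 to 0.24, and 4n log2 ratio -0.26, -0.44 to -0.08). It dropped between P1 and P5 (-1.79, -2.46 to -1.17, and -3.91, -4.45 to -3.42). In CMs with at least 3 fibroblast markers, Dlk1 was at 143 CPM at E16.5 and 84.2 at P1 in 4n, and at 124 and 135 CPM in 2n. CMs with UMIs of Col1a1 or Col3a1 were 22.4% of E16.5-4n and 31.3% of P1-4n CMs, and the part of this in the pooled level was not tested.

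Mest (chr6:30723547-30748465, plus strand), which encodes a protein of the alpha/beta hydrolase family and is a fetal marker in many organs, had nearly the same level in 2n and 4n CMs at E16.5. Its values were 579, 122 and 40.6 CPM in 2n CMs and 576, 178 and 49.7 CPM in 4n CMs. The share of thinned CMs with a Mest UMI was 32.9, 9.76 and 3.05% in 2n and 34.4, 13.3 and 3.91% in 4n (at full depth 49.9, 17.3 and 9.09%, and 54.6, 34.0 and 13.4%). Cdkn1c (chr7:143458339-143461050, minus strand), which encodes the cyclin-dependent kinase inhibitor p57, had the largest ratio between its highest and its lowest library among the 10 genes, 40.7-fold. It was at 103, 11.4 and 4.30 CPM in 2n CMs and at 175, 28.3 and 5.71 CPM in 4n CMs, and most of its fall lay between E16.5 and P1. At P5, 77 and 105 Cdkn1c UMIs remained in 2n and 4n CMs, in 0.478 and 0.547% of thinned CMs (1.63 and 2.65% at full depth).

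Peg3 and Plagl1 encode zinc-finger transcription factors. Peg3 (chr7:6703892-6730431, minus strand) was at 36.3, 17.1 and 15.0 CPM in 2n CMs and at 60.8, 43.9 and 10.3 CPM in 4n CMs. Plagl1 (chr10:13060504-13131694, plus strand), which restrains proliferation and activates other imprinted genes in culture models, was at 46.8, 31.9 and 16.9 CPM in 2n CMs and at 55.6, 36.6 and 15.0 CPM in 4n CMs. For both genes the lowest library was P5-4n. The genes that overlap a member lie on the other strand (Igf2os, Airn, Gm26906, Copg2, Gm44296 and Gm44732 over Igf2, Igf2r, Meg3, Mest, Mest and Cdkn1c).

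The order of the 6 libraries was shared by 5 genes: H19, Igf2, Igf2r, Grb10 and Cdkn1c were highest in E16.5-4n and lowest in P5-2n, with the ages in order and 4n above 2n at each age. For all 5, the intervals of P5-4n and P5-2n overlapped, and for Grb10 those of E16.5-4n and E16.5-2n did too. Mest differed from this order only in its first 2 libraries, whose intervals overlapped. In Dlk1, Meg3 and Peg3, P1-4n stood above E16.5-2n. The other neighbours with overlapping intervals were E16.5-2n and P1-2n as well as both P5 libraries for Dlk1, P1-2n and both P5 libraries for Meg3, P1-2n and P5-2n for Peg3, and P1-4n and P1-2n as well as both P5 libraries for Plagl1.

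**Figure D2:**
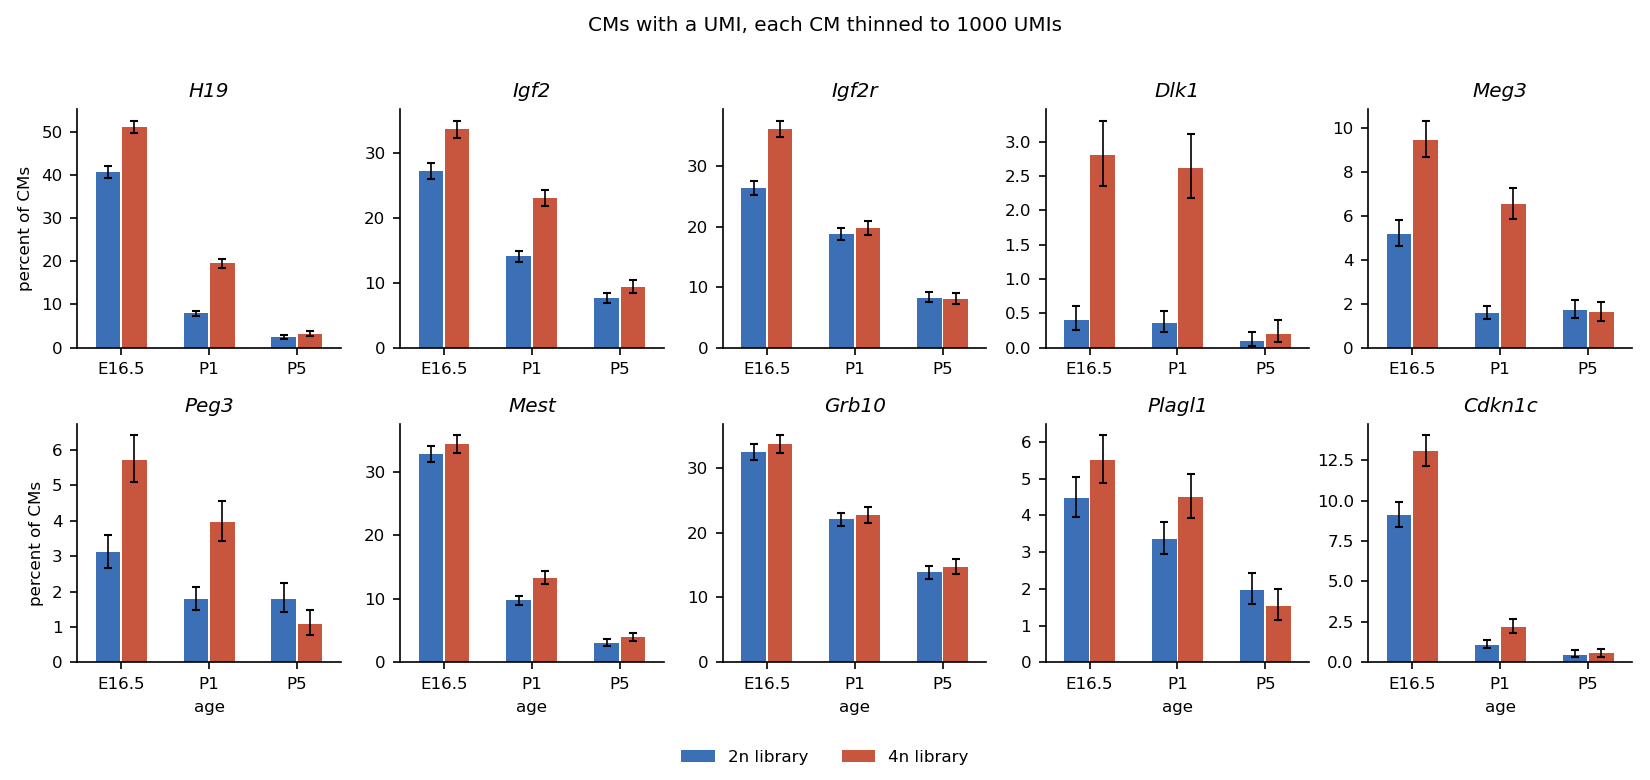
Share of CMs with at least 1 UMI of each gene (percent) after every CM was thinned to 1000 UMIs, in the 6 libraries; bars are exact binomial 95% intervals. The share for H19 was 51.2% in E16.5-4n and 3.17% in P5-4n, and that for Grb10 33.6 and 14.8%.

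A share of all UMIs falls when a few abundant genes rise, so the changes were also read relative to the median gene. Over the 11412 genes, the median log2 ratio was -0.34 from E16.5 to P1 in 2n and -0.29 in 4n, -0.08 and -0.18 from P1 to P5, and -0.45 and -0.53 from E16.5 to P5. A gene was counted as past the fold when it differed from this median by at least 1 on the log2 scale, that is 2-fold. From E16.5 to P1 in 2n, 4 of the 10 genes were lower by this measure (H19, Meg3, Mest and Cdkn1c), against 8.07% of all genes tested. From E16.5 to P1 in 4n, 3 were lower (H19, Mest and Cdkn1c), against 7.54%. From P1 to P5 in 2n, 5 were lower (H19, Igf2r, Dlk1, Mest and Cdkn1c), against 2.78%. From P1 to P5 in 4n, 9 were lower, all but Grb10, against 6.08%. Over the whole interval from E16.5 to P5, 8 were lower in 2n, all but Peg3 and Grb10, against 7.10%, and 9 in 4n, all but Grb10, against 8.82%. No member was higher by the fold in any of these 6 comparisons. H19, Mest and Cdkn1c passed it in all 6. The median log2 ratio over the 10 genes was -1.07 and -0.66 from E16.5 to P1, -1.05 and -1.97 from P1 to P5, and -1.93 and -2.75 from E16.5 to P5, for 2n and 4n.

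The steps differed between genes. Cdkn1c had the largest step from E16.5 to P1, with a log2 ratio of -3.18 (-3.41 to -2.96) in 2n and -2.63 (-2.76 to -2.49) in 4n. H19 fell by 2.54 on the log2 scale in 2n over the same step and by 1.56 in 4n, and then by 1.32 and 2.83 from P1 to P5. For Mest the log2 ratio was -2.25 and -1.69 in the first step and -1.58 and -1.84 in the second. Some of the genes just short of the fold from E16.5 to P5 in 2n were close to it: relative to the median gene Grb10 stood at -0.94 and Peg3 at -0.83, while Plagl1 passed at -1.02.

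**Figure D3:**
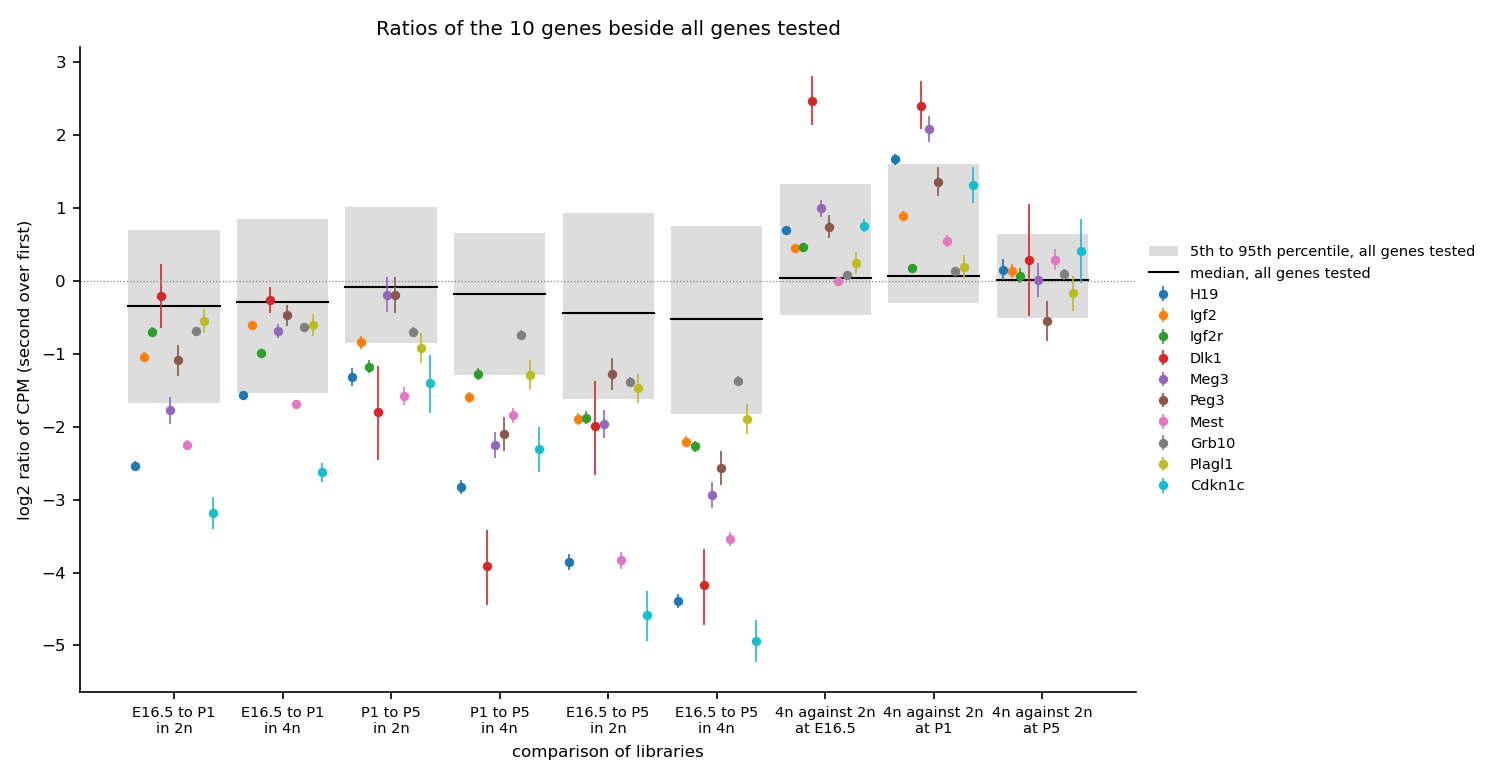
Log2 ratio of CPM for each of the 10 genes in all 9 comparisons, those of ages in 2n and 4n CMs and those of 4n against 2n. Vertical bars are 95% intervals from the exact binomial split of the UMIs. In each comparison the line marks the median and the grey band the 5th to 95th percentile over all genes tested. From E16.5 to P5 the ratios ran from -4.94 (Cdkn1c, 4n) to -1.27 (Peg3, 2n).

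The erythroid markers moved with age in the same libraries. Their sum was 5125, 1895 and 2241 CPM in 2n CMs at E16.5, P1 and P5 and 10327, 2905 and 1648 CPM in 4n CMs. In the CMs with 0 UMIs of these markers (194, 160, 1753, 454, 243 and 252 CMs), 4 and 4 members were lower by the fold from E16.5 to P1 in 2n and 4n, against 15.0 and 16.6% of all genes in the same CMs. From P1 to P5 the counts were 4 and 7, against 15.3 and 15.2%, and from E16.5 to P5 they were 8 and 8, against 19.4 and 20.0%. H19 in these CMs was at 498, 68.8 and 6.33 CPM in 2n at the 3 ages and at 601, 215 and 17.0 CPM in 4n. Mest was at 678, 107 and 18.99 CPM in 2n and at 647, 162 and 26.0 CPM in 4n. In these CMs H19 and Mest were lower at each later age, with H19 at P5 resting on few UMIs. The set was chosen after the data were seen, and the part of erythroid RNA in the levels was not tested.

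The question whether the signal came from cells with collagen RNA was taken up by splitting the CMs of each library by their UMIs of Col1a1 and Col3a1, the fibrillar collagens of fibroblasts. CMs with at least 1 such UMI numbered 249, 1093, 398, 1487, 542 and 637, which is 4.37, 22.4, 5.42, 31.3, 12.3 and 17.4% of the CMs of their libraries. They were deeper than the other CMs of their library, with medians of 2804, 2561, 2090, 4040, 4156.5 and 4848 UMIs against 2224.5, 2110, 1821, 2937, 3707 and 4614, and held 6.49, 26.1, 6.75, 39.0, 14.9 and 19.9% of all UMIs. Collagen-positive CMs still held the 4 CM markers at nearly the level of the others, with log2 ratios between -0.23 and -0.08 over the 4 genes and 6 libraries. A cell that holds both kinds of RNA can be a pair of cells in 1 droplet, a CM with free RNA, or a cell with both transcripts, and these cannot be told apart here.

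Dlk1 had the highest ratio between collagen-positive and other CMs of the 10 members in each of the 6 libraries. Meg3 came next in 5 of them, and in P5-2n it came after H19. The single P5-2n CM that held 118 of the 802 H19 UMIs lay among the collagen-positive CMs, and the order without that CM was not tested. At E16.5 Dlk1 was at 59.0 CPM in the collagen-positive CMs against 2.56 CPM in the others of 2n, and at 106 against 9.01 CPM in 4n. At P1 the values were 58.6 against 1.57 CPM and 65.9 against 4.75 CPM. At P5 it was at 9.72 against 0.131 CPM in 2n and at 7.66 against 0.475 in 4n, the lower values resting on 2 and 7 UMIs. Collagen-positive CMs held 61.5 to 92.9% of the Dlk1 UMIs of each library. For Meg3 the levels were 190 against 55.3, 321 against 59.0, 123 against 11.2, 166 against 23.5, 66.9 against 7.61 and 66.0 against 4.41 CPM in the order of libraries given, and the log2 ratios ran from 1.78 to 3.90. These cells held between 19.2% (E16.5-2n) and 81.9% (P1-4n) of the Meg3 UMIs.

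H19, Peg3, Cdkn1c and Igf2 were also higher in collagen-positive CMs, with the interval of the log2 ratio above 0 in 6 of 6 libraries. In 2n CMs H19 was at 1320 against 600 CPM at E16.5, 381 against 91.9 at P1 and 196 against 18.3 at P5. In 4n CMs it was at 1510 against 882 CPM, 477 against 274 and 139 against 27.7. The gap was widest at P5, with log2 ratios of 3.42 (3.21 to 3.63) and 2.33 (2.14 to 2.52), and at P5 collagen-positive CMs held 65.2 and 55.5% of the H19 UMIs. The P5-2n values take in the single CM with 118 of the 802 H19 UMIs, which the counting interval does not allow for. The log2 ratios ran from 1.38 to 2.20 for Peg3, from 0.58 to 2.47 for Cdkn1c and from 0.59 to 1.25 for Igf2.

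The place of Mest relative to collagen RNA changed with age. At E16.5 it was at 534 against 582 CPM in 2n (log2 ratio -0.13, -0.26 to 0.00) and at 578 against 576 CPM in 4n (0.00, -0.07 to 0.08), so that no enrichment in collagen-positive CMs was seen. At P1 the log2 ratios for 2n and 4n were 0.73 (0.52 to 0.93) and 0.45 (0.35 to 0.55), and at P5 they were 2.52 (2.31 to 2.73) and 2.15 (1.96 to 2.34), where Mest stood at 137 against 23.8 CPM and at 131 against 29.6 CPM. Igf2r was higher by small amounts, with log2 ratios of 0.06 to 0.25 and an interval above 0 in 3 of 6 libraries. For Grb10 and Plagl1 the interval held 0 in all 6 libraries. Grb10, for example, was at 146 CPM in collagen-positive and in collagen-negative CMs of P5-2n alike. Grb10, Plagl1 and Igf2r thus lay in CMs whether or not these held collagen RNA, while the others leaned towards collagen-positive CMs to different degrees.

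**Figure D4:**
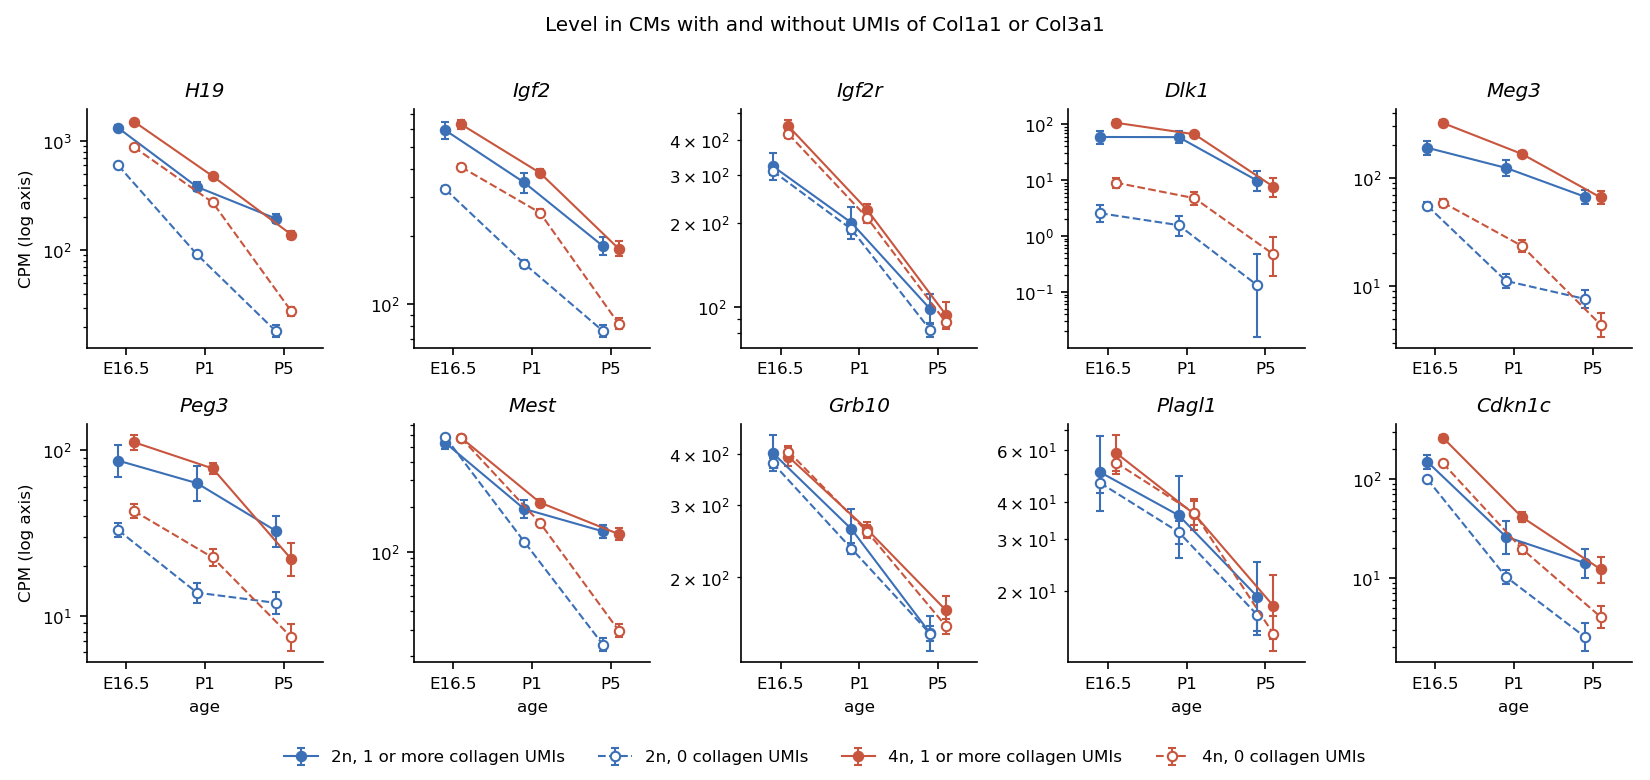
Level of each gene (CPM, log axis) against age in the 6 libraries, split by collagen UMIs. Filled marks are CMs with at least 1 UMI of Col1a1 or Col3a1, and open marks are CMs with none. Vertical bars are exact 95% Poisson intervals. The log2 ratio of the former over the latter ran from 3.56 to 6.21 for Dlk1 and from 0.78 to 3.42 for H19. For Grb10 it stayed near 0 in all 6 libraries.

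H19, Mest, Cdkn1c, Meg3 and Igf2 fell with age by larger factors without the collagen-positive CMs than with them. In CMs with 0 UMIs of both collagens, H19 was 32.8-fold higher at E16.5 than at P5 in 2n and 31.9-fold in 4n, Mest 24.5-fold and 19.5-fold, Cdkn1c 39.1-fold and 35.4-fold, Meg3 7.27-fold and 13.4-fold and Igf2 4.25-fold and 4.95-fold. A stricter set held no UMI of any of 28 markers of fibroblasts, endothelial cells, macrophages, mural cells and epicardium, and numbered 4554, 2711, 5178, 1515, 2298 and 1528 CMs. Abcc9 is among the 28, so the 8.11 to 28.8% of CMs that held it were left out of this set. There H19 was at 570, 75.9 and 8.48 CPM in 2n at E16.5, P1 and P5 and at 648, 101 and 11.2 CPM in 4n. That is a 67.1-fold and a 57.8-fold difference from E16.5 to P5, with 72 and 78 UMIs at P5. Mest was at 572, 117 and 20.7 CPM in 2n and at 524, 135 and 21.1 CPM in 4n (27.6-fold and 24.8-fold). Cdkn1c was at 95.8, 11.1 and 1.77 CPM in 2n and at 87.8, 11.2 and 2.59 CPM in 4n (54.2-fold and 33.9-fold). Its P5 values rest on 15 UMIs in 2n and 18 in 4n. These marker-free CMs were shallower than all CMs, with medians of 2165.5, 1989, 1742.5, 2527, 3559 and 4371.5 UMIs. They came from 5699, 4880, 7340, 4747, 4413 and 3654 CMs in the same order, so the filter kept a smaller share at P5 than at E16.5. Asking for 0 UMIs is stricter in a deeper CM, and the part of depth in these folds was not tested.

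CMs with RNA of fibroblast markers kept more of their E16.5 level of H19, Mest, Meg3 and Cdkn1c at P5 than marker-free CMs. Among CMs with UMIs of at least 3 of the 8 fibroblast markers (77, 698, 121, 1038, 150 and 283 CMs), H19 was at 2061, 728 and 467 CPM in 2n at the 3 ages and at 1696, 544 and 209 CPM in 4n. That is a 4.41-fold and an 8.11-fold difference from E16.5 to P5. Mest was at 635, 303 and 301 CPM in 2n and at 569, 237 and 212 CPM in 4n (2.11-fold and 2.69-fold). For Meg3 the fold was 2.07 and 3.30 in these CMs and 6.58 and 13.6 in the marker-free ones, and for Cdkn1c 7.59 and 16.7 against 54.2 and 33.9. Grb10 changed by similar folds in both, 2.78 and 2.31 with fibroblast markers and 2.57 and 2.68 without any marker. Peg3 did so too, with 2.22 and 4.39 against 2.38 and 4.29. In CMs with at least 3 endothelial markers (21, 109, 23, 206, 69 and 75 CMs), H19 was at 3166, 1434 and 804 CPM in 2n and 2921, 973 and 425 CPM in 4n. In every library that was above its level in the CMs with fibroblast markers, and these sets of CMs overlap. Mest at E16.5 was already higher in CMs with endothelial markers than in marker-free CMs. It was at 1149 against 572 CPM in 2n (log2 ratio 1.01, 0.79 to 1.22) and at 1040 against 524 CPM in 4n (0.99, 0.86 to 1.12). No class of cells known to lack these 10 genes was at hand, so that a level of free RNA could not be set.

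Between 4n and 2n CMs of the same age, the members differed most at P1 and least at P5. At E16.5, 1 of the 10 genes was higher in 4n by the fold relative to the median gene (Dlk1), against 6.67% of all genes tested, and the median log2 ratio of the members was 0.58 against 0.04 over all genes. At P1, 5 were higher (H19, Dlk1, Meg3, Peg3 and Cdkn1c), against 7.61%, with medians of 1.10 and 0.07. At P5, 0 were higher, against 2.30%, with medians of 0.11 and 0.02. Over all CMs, no member was lower in 4n by the fold at any age. The log2 ratio at P1 was 1.67 (1.59 to 1.74) for H19, 2.40 (2.08 to 2.74) for Dlk1, 2.08 (1.90 to 2.26) for Meg3, 1.36 (1.16 to 1.56) for Peg3 and 1.31 (1.07 to 1.56) for Cdkn1c. For Grb10 it was 0.08 (0.02 to 0.13) at E16.5, 0.13 (0.07 to 0.19) at P1 and 0.09 (0.01 to 0.17) at P5. At P5 the interval held 0 for Igf2r, Dlk1, Meg3, Plagl1 and Cdkn1c, and Peg3 was lower in 4n (-0.55, -0.82 to -0.27).

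The fibroblast markers differed between 4n and 2n in the same direction at each age, from 133 to 796 CPM at E16.5, from 142 to 947 at P1 and from 263 to 360 at P5. Without collagen-positive CMs, the level of H19 in 4n over 2n went from 1.62-fold to 1.47-fold at E16.5 and from 3.17-fold to 2.99-fold at P1. Without any of the 28 markers it was 1.14-fold at E16.5 and 1.33-fold at P1. For Meg3 the ratio at P1 was 4.23 in all CMs, 2.11 without collagen and 1.61 without any marker, at E16.5 it was 1.99, 1.07 and 0.772, and at P5 it was 1.01, 0.579 and 0.373. The last of these, from 22 against 72 UMIs (log2 ratio -1.42, -2.18 to -0.72), was past the fold towards lower in 4n. Dlk1 at P1 went from 5.29-fold to 3.04-fold and 2.12-fold. The last of these rests on 14 UMIs in 4n against 15 in 2n. The CPM intervals there, 1.62 to 4.97 in 4n and 0.782 to 2.30 in 2n, overlapped. Cdkn1c went from 2.49-fold to 1.93-fold and 1.01-fold at P1, and from 1.69-fold to 1.44-fold and 0.916-fold at E16.5. The number of members past the fold at P1 was 3 without collagen-positive CMs (H19, Dlk1 and Meg3) and 5 in all CMs. In marker-free CMs it was 1 (Dlk1, 14 against 15 UMIs). Of all genes, 6.35% were past the fold without collagen-positive CMs and 4.72% in marker-free CMs. At E16.5 it was 1 (Dlk1) and 0, against 6.22 and 4.88%. In CMs with at least 2 collagen UMIs no member was higher in 4n by the fold, against 13.1% of all genes at E16.5, 14.5% at P1 and 7.62% at P5.

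**Figure D5:**
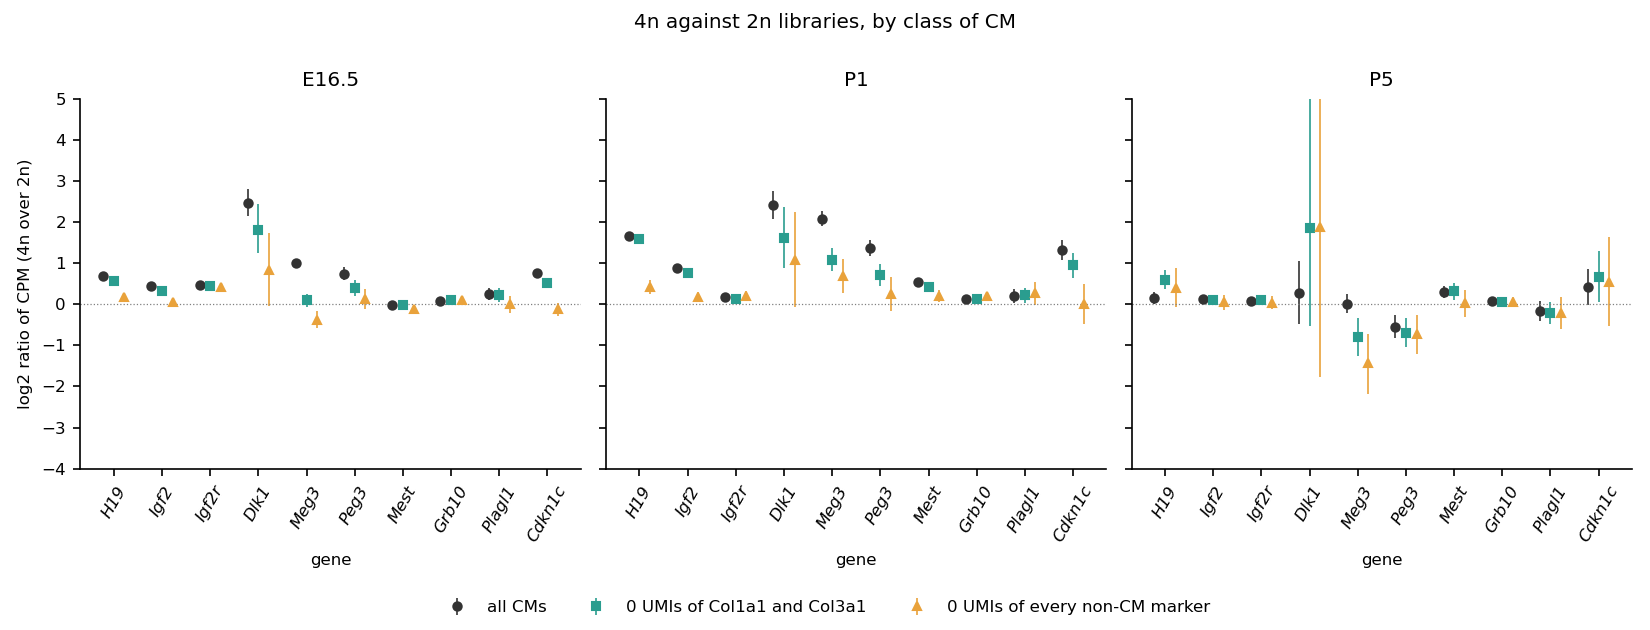
Log2 ratio of CPM in 4n over 2n CMs at E16.5, P1 and P5 for each gene, over all CMs, CMs without collagen UMIs and CMs without UMIs of any of the 28 markers, with 95% intervals from the exact binomial split; the intervals of Dlk1 at P5 in both restricted sets, which rest on few UMIs, run past the axis limits. H19 at P1 went from 3.17-fold in all CMs to 1.33-fold in marker-free CMs, and Grb10 stayed close to equal in every set.

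H19 and Igf2, which share a locus, overlapped in CMs, with Igf2 UMIs in a larger share of CMs with H19 than of CMs without. In P1-4n, 41.8% of thinned CMs with an H19 UMI also held an Igf2 UMI (38.6 to 45.1%), against 18.6% of those without (17.4 to 19.8%), and among collagen-negative CMs the shares were 41.6% and 16.2%. In P5-4n they were 44.8% (35.6 to 54.3%) and 8.25% (7.37 to 9.21%), and in P5-2n 36.2% and 6.90%. The gap was smaller in P1-2n, with 22.1% and 13.4%, and at E16.5, with 31.6% and 24.3% in 2n and 39.3% and 27.8% in 4n. Dlk1 and Meg3 also met in the same CMs, where in E16.5-4n 41.2% of the 136 thinned CMs with Dlk1 held Meg3, against 8.58% of those without. Among collagen-negative CMs of that library 4 of 35 did (11.4%, 3.20 to 26.7%), against 5.06%, and among those of E16.5-2n 0 of 9 did (up to 33.6%), against 4.95%. Not all pairs met in every library. Cdkn1c and H19 shared CMs in E16.5-4n, where 64.8% of CMs with Cdkn1c held H19 against 49.1% of those without, and in P1-4n (45.7 and 18.9%), but in E16.5-2n the shares were 39.4 and 40.8%. For Peg3 and Meg3 the shares were 20.1 and 8.84% in E16.5-4n, with 5.88 and 5.09% among its collagen-negative CMs, and 5.81 and 5.18% in E16.5-2n.

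Of 38 other imprinted genes on a list set beside these 10, 36 were found and 24 reached 100 UMIs. From E16.5 to P1, 7 of the 24 (29.2%) were lower by the fold in 2n and 6 in 4n, against the 8.07 and 7.54% of all genes given above. From P1 to P5 the shares were near those of all genes, with 1 (4.17%) against 2.78% in 2n and 2 (8.33%) against 6.08% in 4n. From E16.5 to P5, 8 (33.3%) were lower in 2n against 7.10%, and 6 in 4n against 8.82%. Those lower in both 2n and 4n from E16.5 to P5 were Usp29, Zim1, Ndn, Nnat, Kcnq1ot1 and Airn. Kcnq1ot1, the antisense RNA of the domain that holds Cdkn1c, was at 58.9, 16.8 and 8.26 CPM in 2n CMs and 69.1, 19.2 and 10.5 CPM in 4n CMs. Airn, the antisense RNA at Igf2r, was at 25.8, 14.1 and 4.80 CPM in 2n and 27.2, 15.6 and 5.05 CPM in 4n, and fell mainly between P1 and P5 (log2 ratio -1.56 and -1.62). Ndn, which encodes necdin, a protein of the MAGE family, was at 43.7, 11.8 and 14.6 CPM in 2n and 48.0, 20.5 and 11.1 CPM in 4n. Snrpn, a splicing protein gene, was higher by the fold in 2n from E16.5 to P5 (log2 ratio 1.18, 0.98 to 1.39) and not in 4n (0.19, -0.05 to 0.43). The median log2 ratio of the 24 from E16.5 to P5 was -0.88 in 2n and -0.67 in 4n, against -0.45 and -0.53 over all genes.

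Other genes of insulin-like growth factor signalling moved in both directions. Of 24 on the list, 21 reached 100 UMIs, and from E16.5 to P1 the share lower by the fold was near that of all genes, with 2 (9.52%) in both 2n and 4n against 8.07 and 7.54%. From P1 to P5, 2 (9.52%) were lower in 2n against 2.78% and 6 (28.6%) in 4n against 6.08%. From E16.5 to P5, 5 (23.8%) were lower in 2n against 7.10% and 7 (33.3%) in 4n against 8.82%, while 3 and 2 were higher (14.3 and 9.52%), against 9.19 and 8.26% of all genes. Igf2bp1, which encodes an RNA-binding protein named for its binding to Igf2 mRNA, went from 13.3 CPM at E16.5 to 2.98 at P1 and 0.669 at P5 in 2n and from 15.3 to 3.56 and 1.41 CPM in 4n. Igf2bp2 and Igf2bp3 were lower at P5 as well, with log2 ratios of -1.61 and -1.91 in 2n and of -2.05 and -1.73 in 4n. Igfbp2, a binding protein for the growth factors, went from 157 to 4 UMIs in 2n and from 131 to 9 in 4n, and Irs2, a receptor substrate, fell from 30.9 to 10.7 CPM and from 32.1 to 10.0 CPM. Igf1, the postnatal counterpart of Igf2, rose over the same interval, with 22.4 CPM at E16.5 and 47.8 at P5 in 2n CMs and 28.7 and 50.3 CPM in 4n CMs, and was past the fold relative to the median gene in both, as was Akt2. Igf1r, the receptor for both growth factors, was not (63.8 to 41.6 CPM and 72.0 to 41.6 CPM). Igfbp3, Igfbp4, Igfbp5 and Igfbp7 were higher in 4n than in 2n by the fold at E16.5 and at P1, 4 of the 21 genes at either age against 6.67 and 7.61% of all genes. Igfbp7 was also higher in collagen-positive CMs, by a log2 ratio of 2.89 to 3.93 over the 6 libraries.

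The genes whose levels over the 6 libraries were most like each member were found among 8454 genes with at least 500 UMIs, by the root mean square (rms) difference between log2 CPM profiles centred on their own means. The nearest to H19 were Cdkn1c (0.38), Maff (0.41) and Mest (0.43), and those to Cdkn1c were Gpc3 (0.31), which encodes the glypican mutated in an overgrowth syndrome, H19 (0.38) and Maff (0.52). Meg3 was the third nearest to Dlk1 (0.80). For each of the other 7 genes, no member was among the 3 nearest. Mest was closest to Maff (0.09), a small basic leucine zipper factor, and to Sfrp1 (0.22), a secreted Wnt antagonist. Igf2 was nearest to Junb (0.15), Igf2r to Ftl1 (0.10), Meg3 to Mfap2 (0.14), a protein of elastic microfibrils, Peg3 to Tmem108 (0.07), Grb10 to Snx1 (0.05) and Plagl1 to Per1 (0.07) with Irs2 close by (0.09). The profile of Dlk1 had no close match, with Clca3a1 nearest at 0.63. Profiles over 6 libraries share depth and composition, and a near profile is a description of these libraries.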

How the data were processed

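Gene by cell count matrices were deposited by the authors for 6 libraries (10x Genomics 3′ v2 chemistry) as raw UMI counts. According to the study's methods, reads were aligned to GRCm38 with STAR within Cell Ranger, whose version is not given in the sources used here, and Seurat 2.3.0 is named in the submitters' processing notes. The deposited table of the authors' own comparisons and a deposited symbol list were not used, and there were 0 columns of other samples. The age label of E16.5-4n reads day 16.6 while its title says E16.5, and the title was followed.

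The 10 genes and all lists were chosen with earlier results of these data known. Named were all members, list genes past the fold in both ploidies of an age comparison or with the largest values of their list, and the 3 nearest profiles. Snrpn, Igf1r and the binding proteins Igfbp3, Igfbp4, Igfbp5 and Igfbp7 were named after their values were seen.

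UMIs were summed over CMs and divided by all their UMIs, times 1000000 (CPM). Intervals are exact at 95% (Poisson for levels, Clopper-Pearson for shares, and the split of UMIs between libraries as a binomial share for ratios) and cover counting error only. The level of 3 UMIs, given in CPM for the libraries, was a set floor and not the upper limit of an interval. Genes with at least 100 UMIs over the 6 libraries entered the comparisons. No doublet caller was run and no cells were removed as doublets, but leaving out the 5% deepest CMs was an alternative. In all, 11 alternatives were tried, of which CMs without erythroid UMIs was chosen after the data were seen. Coordinates are from GENCODE vM21 (GRCm38). The calculations were tested on simulated data. Python 3.11.15, numpy 2.4.6, scipy 1.17.1, pandas 2.3.3 and matplotlib 3.10.9 were used.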

Additional observations from a re-analysis of the deposited data

Results flagged for a closer look

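Peg3 and Mest took opposite signs between 4n and 2n CMs at different ages, relative to the median gene. Peg3 was higher in 4n by 0.70 on the log2 scale at E16.5 and by 1.29 at P1 and stood at -0.57 at P5. Mest stood at -0.051 at E16.5, at 0.48 at P1 and at 0.27 at P5. Without the subtraction of the median gene, its log2 ratio at E16.5 was -0.01 (-0.05 to 0.04). With 1 library per group, neither difference between ages was tested.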

How the results depend on the processing

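No paired analysis was possible because each comparison set 1 library against 1 library, and a fit of 4n against 2n that takes the 3 ages as replicates was not run. The counts of members lower with age stayed within 1.5 times the values given under all 11 alternatives. CMs with at least 2 collagen UMIs were not among the 11. In them 3 (2n) and 5 (4n) members were lower from P1 to P5, against 11.9 and 6.82% of all genes. From E16.5 to P1 the counts were 3 and 2, against 18.4 and 7.46%, and from E16.5 to P5 they were 7 and 9, against 14.4 and 10.4%. Scaling by the median of ratios and leaving out the 50 most abundant genes only rescale each library. A call is made relative to the median gene, so these alternatives could not change any count. The counts of members higher in 4n did not all stay within 1.5 times the values given. At E16.5 the count of 1 became 0 in CMs without any non-CM marker, against 4.88% of all genes in the same CMs. It became 2 without the 5% deepest CMs (Meg3 added), against 7.13%. At P1 the count of 5 became 3 without collagen-positive CMs, against 6.35% of all genes, and 1 without any non-CM marker, against 4.72%. At P5 the count of 0 became 1 without collagen-positive CMs (Dlk1, 7 against 2 UMIs), against 2.97% of all genes. It became 1 without any non-CM marker (Dlk1, 3 against 1 UMIs), against 4.32%. Without erythroid UMIs it became 1 (H19, 17 against 5 UMIs), against 14.9%. No log2 ratio of a member that was past the fold changed its sign; over all members and alternatives 643 ratios lay within the counting interval of the value given and 340 outside it. The Igf2r ratio between collagen-positive and other CMs in E16.5-4n went from 0.09 to -0.009 when at least 5 collagen UMIs were asked for. The causes of these shifts were not tested. Depth limits Dlk1 most, with 28 and 35 UMIs at P5.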

Other observations

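Members differed by cycling state in some libraries. Among collagen-negative CMs, those with at least 2 UMIs of 20 cycling genes were compared with those with 0. The cycling CMs were deeper, with medians of 2690.5, 2333, 2884.5, 4586.5, 4582 and 4815 UMIs against 2041, 1703, 1742, 2593, 3400 and 4264. The part of depth in the differences was not tested. Mest was lower in cycling CMs at E16.5 (479 against 649 CPM in 2n and 530 against 667 in 4n) and higher in those of P1-4n (195 against 144 CPM, log2 ratio 0.43, 0.28 to 0.59). In E16.5-4n Cdkn1c was at 114 against 237 CPM (log2 ratio -1.05, -1.23 to -0.88) and Meg3 at 47.3 against 97.6 CPM, while Cdkn1c in E16.5-2n was at 94.7 against 101 CPM with an interval that held 0. H19 was higher in cycling CMs of E16.5-2n (617 against 585 CPM), P1-2n (179 against 84.7 CPM), P1-4n (315 against 257 CPM, log2 ratio 0.30, 0.18 to 0.42) and P5-2n (28.5 against 11.6 CPM) and lower in those of E16.5-4n (795 against 1117 CPM) and P5-4n (17.2 against 41.2 CPM). In 4n libraries a CM without cycling UMIs can be binucleate or tetraploid, and which of these it was cannot be told apart from these data. Grb10 stayed near equal in 5 of 6 libraries, with an interval below 0 in P1-4n (-0.26, -0.40 to -0.13).

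The members were also compared by myosin, first at P1. There CMs with most of their Myh6 and Myh7 UMIs from Myh7, the fetal ventricular myosin of mice, held more H19 (116 against 102 CPM in 2n and 400 against 345 in 4n), Igf2 (179 against 158 and 353 against 297 CPM), Grb10 (284 against 226 and 286 against 256 CPM), Igf2r (209 against 187 CPM in 2n and 264 against 208 in 4n) and Mest (147 against 115 CPM and 208 against 174 CPM), with the interval of the log2 ratio above 0 for each. For the other members at P1 the interval held 0, apart from Meg3 in 4n (log2 ratio 0.29, 0.08 to 0.50). At E16.5 only 69 and 51 CMs of 2n and 4n lay outside this class, with mixed directions. In 2n, H19 was at 645 against 347 CPM and Mest at 576 against 879. In 4n, Cdkn1c was at 170 against 513 CPM and Igf2r at 425 against 721. At P5 the class numbered 145 and 37 CMs. Meg3 was higher in it there, on 25 UMIs of the class in 2n and 11 in 4n, while the H19 interval held 0 in both libraries. The other members are not listed here for P5. Meg3 was also higher in collagen-positive CMs in all 6 libraries. The Myh7 class was not split by collagen UMIs, so the part of collagen RNA in the Meg3 difference was not tested. At P1 the Myh7 class was shallower, with a median of 1542.5 against 1981 UMIs in 2n and 2459 against 3501 in 4n, and the part of depth was not tested.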
